A study of Homo sapiens with 8 samples.

Results

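The MHC class II genes and their transactivator CIITA were followed through open chromatin of U-937, a human myeloid leukaemia cell line of monocytic character, measured by ATAC-seq, in which a transposase inserts adapters where DNA is accessible. The cells had received DMSO, the vehicle control, 0.1 µM all-trans retinoic acid (ATRA, the ligand of the retinoic acid receptors), 0.1 µM Corin (a synthetic compound that inhibits both the histone demethylase LSD1 and the histone deacetylases of the CoREST corepressor complex), or 0.1 µM of each together, for 24 h. The labels name 2 samples in each of the 4 groups, 8 in all, and the authors deposited 1 peak list per group. There are 10 member genes: CIITA, CD74, HLA-DRA, HLA-DRB1, HLA-DQA1, HLA-DQB1, HLA-DPA1, HLA-DPB1, HLA-DMA and HLA-DMB. A peak belonged to a member when it overlapped the gene body or the 25 kb on either side of it (GENCODE release 44, hg38). Overlapping peaks of the 4 lists were joined into union regions, and 77 of 161291 union regions (0.0477%) lay in these windows, 19 of them in the windows of more than 1 member.

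MHC class II molecules are heterodimers that show peptides from endocytosed protein to CD4+ T cells. HLA-DRA and HLA-DRB1, HLA-DQA1 and HLA-DQB1, and HLA-DPA1 and HLA-DPB1 encode the alpha and beta chains of the classical molecules. CD74 is the invariant chain, which fills the peptide groove until the molecule reaches the endosome, and HLA-DMA with HLA-DMB forms the editor that exchanges its remnant for peptide. Their promoters carry a conserved module in which an X box, bound by the RFX complex, lies upstream of a Y box, the inverted CCAAT bound by NF-Y. CIITA binds no DNA of its own: it docks on this assembled platform, and its own transcription from alternative promoters sets which cells make MHC class II.

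Each value below comes from 1 list in which the 2 samples of a group had been combined, so values carry no replicate error and differences between treatments are described without a test. Whether the samples of a group came from separate cultures is not given in the labels. The value of a region is the highest fold of its peaks over local background, the authors' own score, and the read depth is unknown. A fold can move through the peak or through the background, so the pileup (reads stacked at the summit) and the background were also solved from each peak's p and fold. The most frequent background was 12.8 in DMSO, 13.1 in Corin and 13.9 in the combination but 9.12 in ATRA. Ratios were therefore centred: from each log2 ratio the median over all regions called in both lists was subtracted, 0.34 for ATRA against DMSO, -0.09 for Corin against DMSO, 0.03 for the combination against DMSO, -0.34 for the combination against ATRA and 0.10 for the combination against Corin. "Higher" and "lower" below mean a centred ratio of at least 1.5-fold. HLA genes are polymorphic and have close paralogues, so reads of one may be placed on another or nowhere, and a region without a call cannot be told apart from one where reads could not be placed. In a bulk culture, fewer cells with an open region and less opening per cell cannot be told apart either. The line's identity was checked at the starts of marker genes: 7 of 8 myeloid markers had a region in every list, against 1 of 3 T cell markers (CD2) and 0 of 3 erythroid ones. Of the other lists, 1 of 3 dendritic cell markers (FLT3, fold 13.7, 12.8, 14.7 and 13.6 in DMSO, ATRA, Corin and the combination) and 1 of 3 fibroblast markers (COL1A2, 6.81, 8.01, 6.37 and 5.02) had a region in every list, and the epithelial marker EPCAM had one in DMSO alone (2.46). The B cell gene CD79A had a start region in every list. The part of the CD79A region, whose fold was 7.55 in DMSO, 16.6 in ATRA, 6.75 in Corin and 11.5 in the combination, in the class II results was not tested; MS4A1 and PAX5 had no region at their starts in any list.

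The promoter sequences show the module that CIITA reads. RefSeq promoters (250 bases before to 50 after the start, GRCh38.p14) were given for 8 of the 10 members, in 9 entries; CIITA and HLA-DRA had no entry. A search for CNAGNNAC, the core of the X box, followed on either strand by CCAAT 30 to 40 bases on, start to start, found it in 5 of the 9 entries and in 133 of 35116 promoters of all genes (0.379%). The range of spacing was chosen after the promoters had been read. The pattern CNAGNNAC was also shorter than the CCNAGNNAC fixed beforehand. HLA-DRB1 and HLA-DQA1 had no match to CCNAGNNAC in their promoters and entered through the shorter pattern alone. The 2 shares are therefore a description and not a test. The 60-base stretches below start 5 bases before the X box core; both motifs are in capitals, with the Y box reading ATTGG where it lies on the other strand.
CD74, chr5:150412939-150412998, minus strand: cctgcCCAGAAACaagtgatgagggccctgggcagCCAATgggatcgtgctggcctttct
HLA-DRB1, chr6:32589875-32589934, minus strand: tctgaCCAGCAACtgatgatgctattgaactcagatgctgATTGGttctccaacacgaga
HLA-DQA1, chr6:32637297-32637356, plus strand: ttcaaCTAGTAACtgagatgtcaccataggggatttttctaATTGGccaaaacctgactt
HLA-DQB1, chr6:32666726-32666785, minus strand: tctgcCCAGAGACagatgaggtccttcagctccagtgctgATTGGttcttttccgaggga
HLA-DMA, chr6:32953158-32953217, minus strand: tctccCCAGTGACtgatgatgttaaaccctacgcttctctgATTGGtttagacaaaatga
The spacing was 30 bases in CD74, 35 in HLA-DRB1 and HLA-DQB1, and 36 in HLA-DQA1 and HLA-DMA. These are letters of the reference genome, not of U-937, and a match is not a bound site. Of the 5 genes, CD74, HLA-DRB1 and HLA-DMA had a region over the start in all 4 lists, whereas the canonical starts of HLA-DQA1 and HLA-DQB1 had none in any list.

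Some regions away from promoters are shown because several of the larger differences between lists lay there. Each line is a 200-base window around the strongest summit, on the plus strand of hg38, with matches to the motifs named after the sequences in capitals, except those to the X box core, which were left unmarked and of these windows fall in the second alone.
30.3 kb upstream of the CIITA start, chr16:10846771-10846970: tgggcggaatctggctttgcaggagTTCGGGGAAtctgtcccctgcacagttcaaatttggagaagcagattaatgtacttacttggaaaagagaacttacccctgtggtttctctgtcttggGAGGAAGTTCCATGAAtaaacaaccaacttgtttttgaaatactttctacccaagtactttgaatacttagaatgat
14.5 kb upstream of the CIITA start, chr16:10862561-10862760: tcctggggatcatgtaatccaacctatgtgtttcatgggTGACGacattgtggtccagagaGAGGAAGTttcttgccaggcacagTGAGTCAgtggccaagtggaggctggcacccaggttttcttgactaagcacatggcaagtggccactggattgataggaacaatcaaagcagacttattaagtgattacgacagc
2.3 kb upstream of the HLA-DRA start, chr6:32437485-32437684: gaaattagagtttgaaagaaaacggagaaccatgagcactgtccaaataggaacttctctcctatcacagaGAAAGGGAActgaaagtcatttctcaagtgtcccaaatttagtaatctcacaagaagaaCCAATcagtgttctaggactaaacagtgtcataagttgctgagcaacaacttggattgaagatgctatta
4.5 kb upstream of the HLA-DMB start, chr6:32945456-32945655: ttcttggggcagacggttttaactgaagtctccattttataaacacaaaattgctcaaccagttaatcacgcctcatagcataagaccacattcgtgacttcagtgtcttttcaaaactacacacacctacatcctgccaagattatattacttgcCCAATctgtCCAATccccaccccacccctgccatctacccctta
The first window, high with ATRA and not called with Corin, holds TTCNNNGAA, the spacing read by STAT factors, at 2 places, and GAGGAAGT, the form preferred by the myeloid factor PU.1, which overlaps one of them. GAGGAAGT also stands in the second window, high with Corin, beside TGACG (the first part of a cyclic AMP response element) and TGANTCA (the AP-1 site). The third window, high with ATRA, holds GAAANNGAA (an interferon regulatory factor site) and CCAAT, and the fourth, high with Corin, holds CCAAT at 2 places. The fourth is centred on the summit of the Corin list, and the summit of the combination, at 32945337, lies outside it. Over all 77 member windows, searched on both strands, CCAAT stood in 25 (32.5%, against 22.8% of all union regions), GAGGAAGT in 8 (10.4% against 6.73%), TGACG in 10 (13.0% against 8.55%), TGANTCA in 9 (11.7% against 12.2%), GAAANNGAA in 6 (7.79% against 7.04%), TTCNNNGAA in 4 (5.19% against 5.11%) and CACGTG in 3 (3.9% against 3.67%). The X box core CNAGNNAC was in 24 (31.2% against 31.4%), and CCNAGNNAC, which contains it with 1 more base, in 9 (11.7% against 11.8%). The direct repeats of the retinoic acid receptor with spacers of 5 or 2 bases were found in 0 of 77 windows and in 0.0905% and 0.17% of all regions. A CTCF motif stood in 3 windows (3.9% against 3.08%).

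Of the 77 regions, 53 were called in DMSO (68.8%, against 70.5% of all union regions), 65 in ATRA (84.4% against 68.6%), 50 in Corin (64.9% against 61.5%) and 52 in the combination (67.5% against 57.8%). All 4 lists shared 40 regions (51.9%, 95% Wilson interval 41.0 to 62.7%), against 41.1% of all union regions. ATRA alone held 12 (15.6%, against 11.4% of all), and ATRA with the combination 6 (7.79% against 3.2%). DMSO alone held 5 (6.49% against 10.2%), Corin alone 3 (3.9% against 8.05%), and the combination alone 0 (against 3.93%). Intervals cover counting error over regions only, and neighbouring regions are not independent. Where a region was in all 4 lists its summit was mostly fixed: 33 of 40 (82.5%, against 80.5% of all such regions) had all summits within 50 bp, and 3 had summits over 200 bp apart (7.5%, against 10.7%). These 3 were the region 14.8 kb upstream of HLA-DQA1 (544 bp), that over the CD74 start (501 bp) and that 4.5 kb upstream of HLA-DMB (219 bp).

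**Figure D1:**
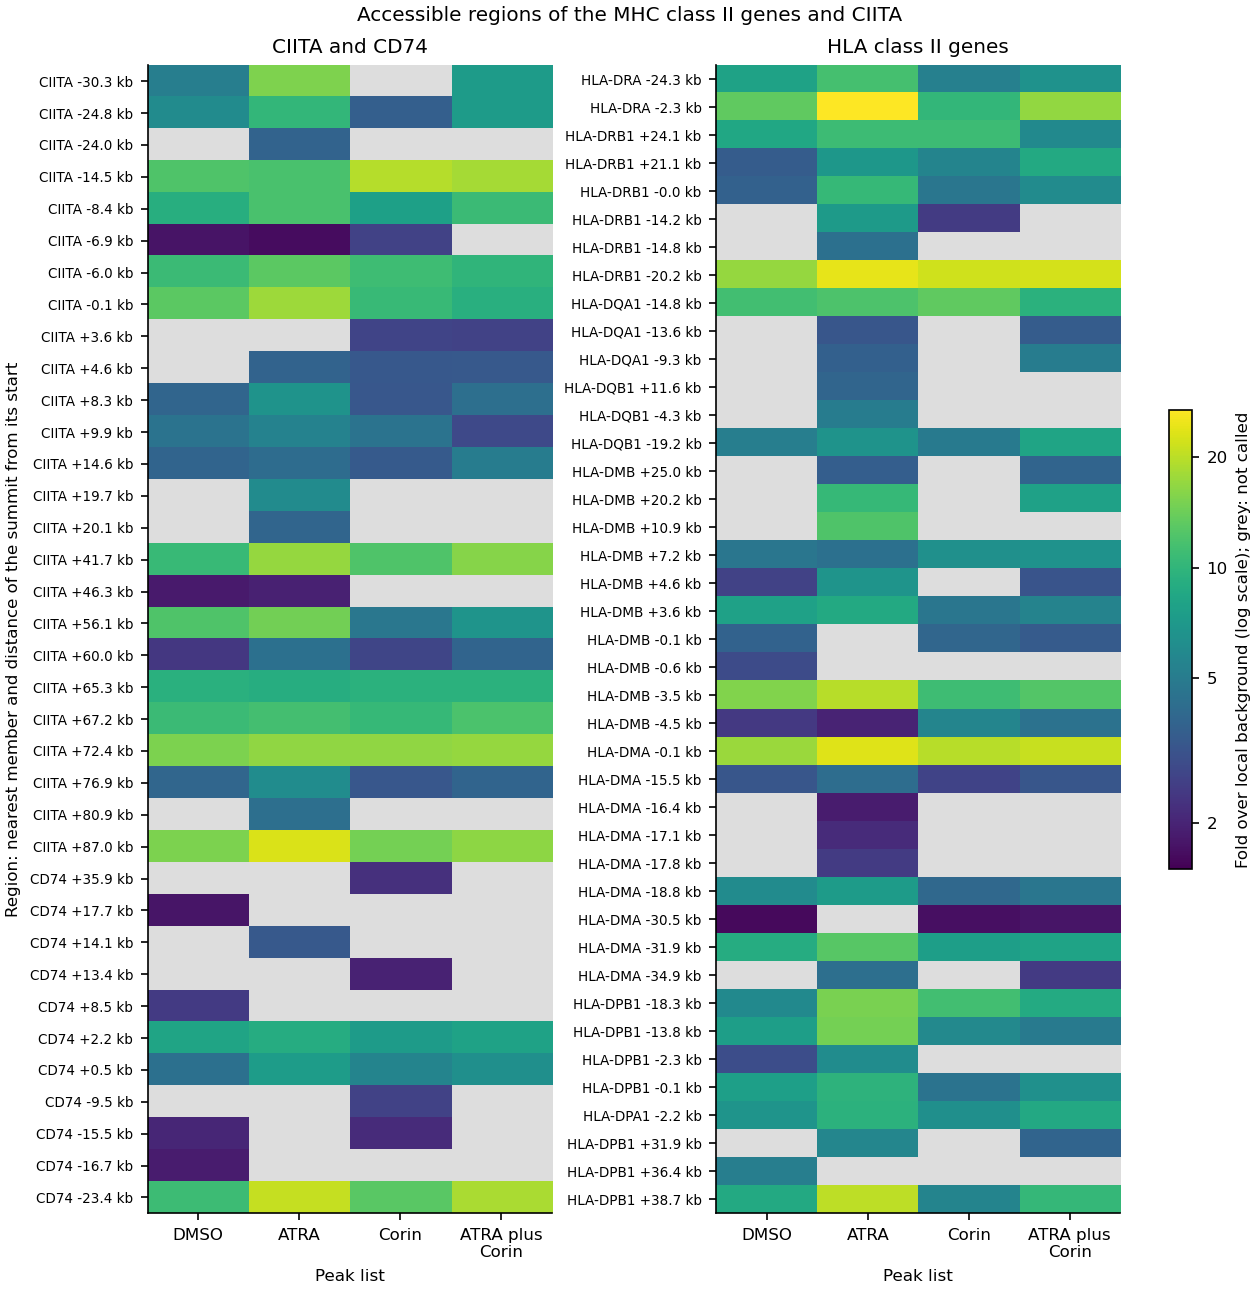
Fold over local background (colour, log scale) of each of the 77 regions (rows, named by the nearest member and the distance of the summit from its start in kb) in each of the 4 peak lists (columns); grey marks a region that was not called. The ATRA column has the fewest grey cells (12 of 77), and the rows around HLA-DMB, HLA-DQA1 and HLA-DQB1 hold several regions called with ATRA and not with DMSO.

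CIITA, the master regulator, had 25 regions in its window on chromosome 16, the most of any member, 16 of them in all 4 lists. Its gene body is the longest of the members, so its window is also the longest. Its canonical start (chr16:10876497-10877816) was open throughout, with a fold of 13.0 in DMSO, 17.8 in ATRA, 10.5 in Corin and 9.32 in the combination. ATRA was the highest and the combination the lowest; on the centred log2 scale the differences from DMSO were 0.12 with ATRA, -0.22 with Corin and -0.51 with the combination, none of them past 1.5-fold. Against ATRA the combination was lower, at -0.59 (0.01 when the mean instead of the highest peak of the region was taken). This region covers 7 annotated transcript starts of CIITA, while the starts farther upstream at 10866222 and 10866260 had no region in any list. The annotated starts farther downstream, the nearest at 10878969, had none in any list either.

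Upstream of CIITA the compounds differed in direction. The region 30.3 kb upstream had a fold of 5.19 in DMSO, 15.4 in ATRA and 7.30 in the combination and was not called in Corin. Its solved pileup was 71, 211 and 108 over backgrounds of 12.9, 12.8 and 13.9, so the peak and not the background was higher in ATRA; the centred log2 ratio of 1.23 was the highest of all member regions in that comparison. At 14.5 kb upstream the order was another: 12.2 in DMSO, 11.8 in ATRA, 19.6 in Corin and 18.3 in the combination. Corin was higher there both without ATRA (0.77, centred log2) and with it (0.98), with solved pileups of 168 in DMSO, 118 in ATRA, 346 in Corin and 283 in the combination. The region 24.8 kb upstream was lower in Corin (fold 3.61, against 6.03 in DMSO, centred log2 -0.66), with 10.2 in ATRA and 7.36 in the combination.

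The far end of CIITA held the member region that was lowest with Corin. This region, 56.1 kb downstream of the start (chr16:10932767-10933646), overlaps a UTR of CIITA and an intron of the neighbouring gene DEXI. Its fold was 12.2 in DMSO and 14.5 in ATRA but 4.71 in Corin and 6.71 in the combination. Both lists with Corin were thus below both lists without it, at -1.29 (Corin against DMSO), -0.89 (combination against DMSO) and -0.78 (combination against ATRA) on the centred log2 scale. Its solved pileups were 276, 344, 81 and 126, over backgrounds of 21.7, 22.8, 16.4 and 17.9. Among 11703 genes outside the windows with a start region in all 4 lists, the 3 whose centred ratios against DMSO lay nearest to those of this region were KRTAP5-5, ALDOC and TREML4, at distances of 0.0536, 0.291 and 0.307 log2 units over the 3 ratios. Inside the gene, the region 4.6 kb downstream was called in the 3 treatments (3.76 in ATRA, 3.31 in Corin, 3.35 in the combination) and not in DMSO, and that at 3.6 kb in Corin (2.71) and the combination (2.66). Regions at 19.7 and 20.1 kb were in the ATRA list alone, with folds of 6.03 and 3.85. Regions at 41.7 and 8.3 kb were in all 4 lists with no centred difference past 1.5-fold: at 41.7 kb the fold was 10.6, 17.1, 12.2 and 16.0, and at 8.3 kb 3.85, 6.65, 3.27 and 4.33, in DMSO, ATRA, Corin and the combination. At 9.9 kb the combination, with 2.84, was below DMSO (4.50), ATRA (5.43) and Corin (4.53), at -0.69 against DMSO on the centred log2 scale. Next to CIITA, the regions at the starts of DEXI and CLEC16A stayed between 9.08 and 9.55 and between 10.4 and 12.0 over the 4 lists. With the mean of the peaks the DEXI start was 0.81 above DMSO in ATRA and 1.22 in Corin, but -0.03 in the combination. By that measure the CLEC16A start was at -0.17, 0.76 and 0.08 against DMSO in ATRA, Corin and the combination.

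**Figure D2:**
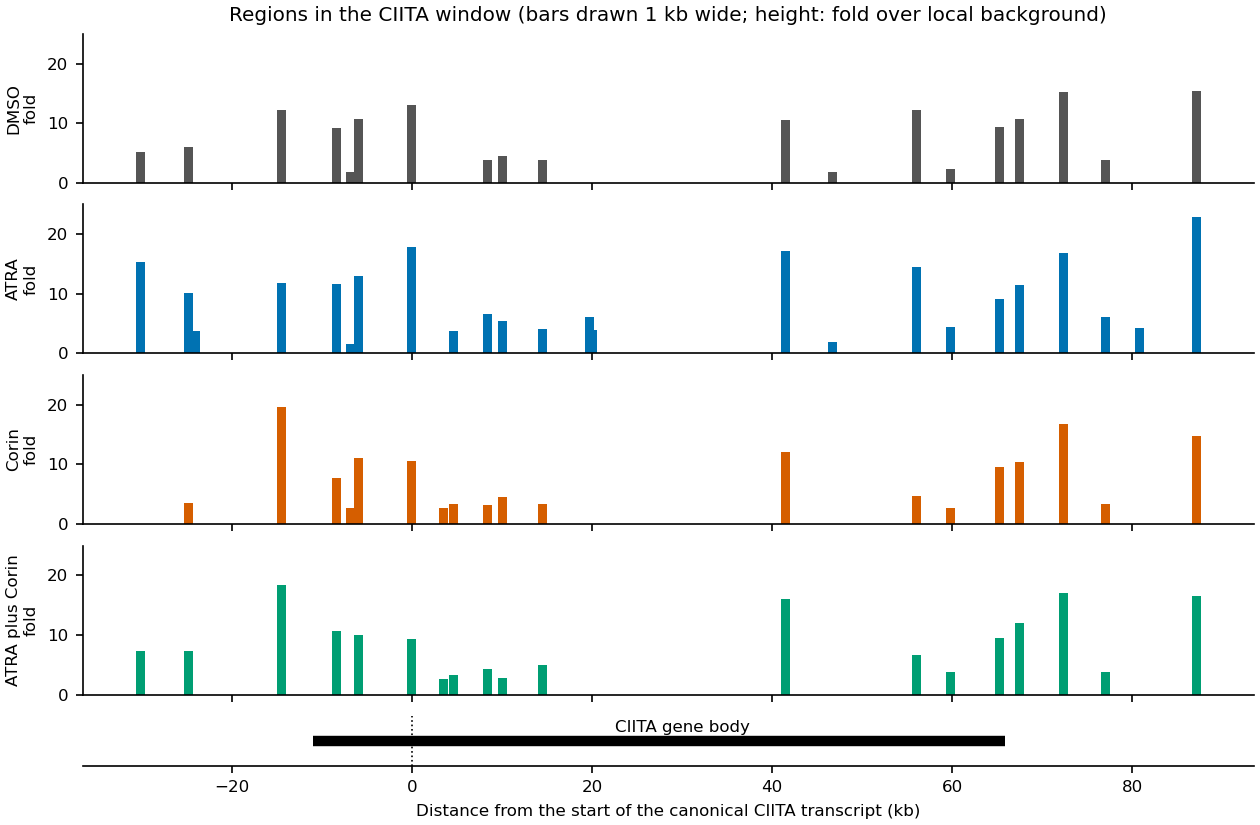
Regions of the CIITA window in the 4 lists: horizontal axis, distance from the canonical start in kb; height, fold over local background; the black bar is the CIITA gene body, and bars are drawn 1 kb wide whatever the region's width. The bar at 56.1 kb is 12.2 and 14.5 in DMSO and ATRA and 4.71 and 6.71 in the lists with Corin, while that 14.5 kb upstream of the start goes the other way; the bar 30.3 kb upstream is missing in Corin.

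At CD74, the invariant chain, 11 regions on chromosome 5 were called and 3 of them in all 4 lists. The region over its start (chr5:150412242-150413130) had a fold of 4.36 in DMSO, 7.38 in ATRA, 5.51 in Corin and 6.35 in the combination. All 3 treatments exceeded DMSO, by 0.42, 0.42 and 0.51 on the centred log2 scale, short of 1.5-fold by fold. For ATRA the ratio was 0.60 by solved pileup, past 1.5-fold, and 0.27 with the mean of the peaks. The strongest summit lay at 150412403 in DMSO and 150412395 in ATRA, but at 150412628 in Corin and 150412896 in the combination. The region 2.2 kb downstream, inside the gene, was steady at 8.07, 8.93, 7.32 and 7.95. The strongest region of the window lay 23.4 kb upstream, at 10.9 in DMSO, 20.8 in ATRA, 12.9 in Corin and 18.8 in the combination. There the solved pileup was nearly level (432, 362, 369 and 429) and the background was not (38.6, 16.4, 27.6 and 21.9): by pileup the centred log2 ratio was -0.36 for ATRA and -0.17 for the combination, against 0.60 and 0.75 by fold. Of the other 8 CD74 regions, 7 were in 1 list each, none with a fold above 3.36.

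At HLA-DRA and HLA-DRB1, which encode the chains of HLA-DR, the regions nearest the starts were strongest in the ATRA list. No region lay over the HLA-DRA start; the nearest was 2.3 kb upstream (chr6:32437072-32437930). There the fold was 13.4 in DMSO, 26.9 in ATRA, 10.1 in Corin and 16.9 in the combination, and the solved pileup 184, 401, 142 and 285. The 2 lists with ATRA were the 2 highest: the centred log2 ratio was 0.67 for ATRA against DMSO and 0.64 for the combination against Corin. With the mean of the region's peaks these were 0.22 and -0.71, so the order rests on the highest peak. At the HLA-DRB1 start (chr6:32589624-32590228) the fold was 3.70 in DMSO, 10.4 in ATRA, 4.67 in Corin and 6.03 in the combination. ATRA was higher than DMSO by 1.15 on the centred log2 scale and the combination by 0.68, with solved pileups of 50, 104, 65 and 89. Taking the mean of the peaks brought these to 0.53 and 0.09. DRB genes are among the closest paralogues of the locus: at the start of HLA-DRB5 a region was called in ATRA alone, with a fold of 5.34.

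Farther from HLA-DRB1, the region 20.2 kb upstream, between HLA-DRB1 and HLA-DQA1, was among the 3 strongest of DMSO, at 17.0, and reached 24.2 in ATRA, 21.8 in Corin and 22.3 in the combination, with no centred difference past 1.5-fold by fold. By solved pileup Corin was 0.59 above DMSO, and with the mean of the peaks Corin was 1.19 and the combination 1.16 above DMSO, and the combination 1.43 above ATRA. The region 21.1 kb downstream had 3.48 in DMSO, 6.92 in ATRA, 5.52 in Corin and 8.64 in the combination. All 3 treatments were higher than DMSO, by 0.66, 0.75 and 1.28, and its solved pileups were 47, 69, 77 and 128. At 24.1 kb downstream the combination was the lowest, with 5.89, against 8.41 in DMSO, 10.9 in ATRA and 10.8 in Corin; its centred log2 ratio to Corin was -0.98, the lowest of that comparison. A region 14.2 kb upstream was called in ATRA (7.22) and Corin (2.48) only. Farther off, the region 24.3 kb upstream of HLA-DRA had 7.90, 11.5, 5.31 and 6.51 in DMSO, ATRA, Corin and the combination.

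At HLA-DQA1 and HLA-DQB1, the chains of HLA-DQ, neither canonical start had a region in any list. Of the 8 regions in the HLA-DQA1 window, 5 also lay in another member's. HLA-DQA1 had 2 regions called in DMSO, 8 in ATRA, 3 in Corin and 4 in the combination. One of those, 9.3 kb upstream of the canonical start, ended at 32628171, just before the start of an alternative transcript at 32628179. Its fold was 3.66 in ATRA and 5.02 in the combination, with no call without ATRA. The region 14.8 kb upstream of the canonical HLA-DQA1 start was in all 4 lists. It had 11.3 in DMSO, 12.1 in ATRA, 13.3 in Corin and 9.47 in the combination. There the combination was lower than Corin, at -0.59 on the centred log2 scale (-0.15 with the mean of the peaks). For HLA-DQB1 the region 4.3 kb upstream was in ATRA alone, with 5.04, as was that 11.6 kb downstream, with 3.85. In the HLA-DQB1 window only the region 19.2 kb upstream was in all 4 lists, at 5.15, 6.62, 4.88 and 8.10. It was the highest in the combination (0.63 above DMSO, centred log2).

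At HLA-DPA1 and HLA-DPB1, the HLA-DP pair on opposite strands, the region over the HLA-DPB1 start (chr6:33075567-33076156), which is also in an intron of HLA-DPA1, was lower in Corin. Its fold was 7.68 in DMSO, 9.69 in ATRA, 4.53 in Corin and 6.43 in the combination, a centred log2 ratio of -0.68 for Corin (-0.04 with the mean of the peaks). The canonical HLA-DPA1 start had none, and a region over its alternative starts near 33073615 was called in DMSO (2.97) and ATRA (6.13) and in neither list with Corin. The distal regions had the larger differences. At 18.3 kb upstream of HLA-DPB1 the fold was 5.94 in DMSO, 15.0 in ATRA, 11.2 in Corin and 8.77 in the combination, so each compound alone was higher (1.0 and 1.01, centred log2) and the combination lay between (0.53). With the mean of the peaks the order was another, 0.62 with ATRA, 0.26 with Corin and 0.65 with the combination. At 13.8 kb upstream it was 7.61, 14.8, 5.87 and 4.95, higher with ATRA alone (0.63) and lower with the combination (-0.65 against DMSO, -1.24 against ATRA). At 38.7 kb downstream it was 8.71, 20.3, 5.52 and 10.2, with solved pileups of 141, 508, 77 and 205; ATRA was higher without Corin (0.89) and with it (0.79).

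HLA-DMA and HLA-DMB, the peptide editor, held the strongest start of the group. The HLA-DMA start (chr6:32952856-32953688) had a fold of 17.5 in DMSO, the highest of all member regions in that list, and 23.6 in ATRA, 19.7 in Corin and 21.3 in the combination. Its centred log2 differences from DMSO were 0.09, 0.26 and 0.25 by fold. Its solved pileups were 668, 1230, 905 and 1767, and by pileup the centred differences were 0.78, 0.57 and 1.24. With the mean of the region's peaks they were 0.10, 1.1 and 1.1, so the measure decides which treatments pass 1.5-fold. HLA-DMB's own start (chr6:32940972-32941217) was weak, with 3.74 in DMSO, 3.91 in Corin and 3.42 in the combination, and it was not called in ATRA. Another region at this start, 0.6 kb upstream, was called in DMSO alone (2.91). Between the genes, in an intron of an unnamed coding gene (ENSG00000248993) that spans both, lay a strong region 3.5 kb upstream of HLA-DMB, at 15.5, 19.8, 11.0 and 12.5. Its solved pileups were 643, 1212, 637 and 1121 over backgrounds of 40.4, 60.2, 57.1 and 88.7. The centred log2 ratio to DMSO was -0.42 for Corin and -0.34 for the combination by fold. By pileup these were 0.12 and 0.64, and with the mean of the peaks -0.93 and -0.70. A weak region 4.5 kb upstream of HLA-DMB had 2.42 in DMSO, 2.00 in ATRA, 5.60 in Corin and 4.47 in the combination. Both lists with Corin were above both without: 1.29 for Corin against DMSO, the highest centred log2 ratio of the member regions in that comparison, and 1.5 for the combination against ATRA, with solved pileups of 102, 122, 329 and 400. The strongest summit of the combination lay 219 bp from that of Corin, so the 2 values come from different positions in the region. Inside HLA-DMB, an exonic region 3.6 kb downstream went the other way, at 7.85, 8.67, 4.64 and 5.44 (-0.67 for Corin). In an intron 4.6 kb downstream, ATRA had 6.67, against 2.65 in DMSO and 3.17 in the combination, with no call in Corin; the centred log2 ratio of ATRA to DMSO was 1.0 by fold and 1.79 by solved pileup, but 0.27 with the mean of the peaks.

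Past the end of HLA-DMB stood the member region with the strongest call among those gained with ATRA. At 10.9 kb downstream of its start (chr6:32929840-32930696) a region was called in ATRA alone, with a fold of 12.2, a -log10 p of 124 and a solved pileup of 170 over a background of 13.0. Another, 20.2 kb downstream, was called in ATRA (10.4) and in the combination (7.83). The other regions of high -log10 p gained with ATRA, 17.1 and 17.8 kb upstream of HLA-DMA, lie in the gene BRD2 and had folds of 2.14 and 2.49 over a background of 341. Lost in all 3 treatments were the 5 regions called in DMSO alone. The strongest call among them, 36.4 kb downstream of HLA-DPB1, had a fold of 5.17 and a -log10 p of 31.8. Next came the region 0.6 kb upstream of HLA-DMB, with a fold of 2.91 and a -log10 p of 28.7. That 8.5 kb downstream of the CD74 start followed, with 2.45 and 10.9.

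**Figure D3:**
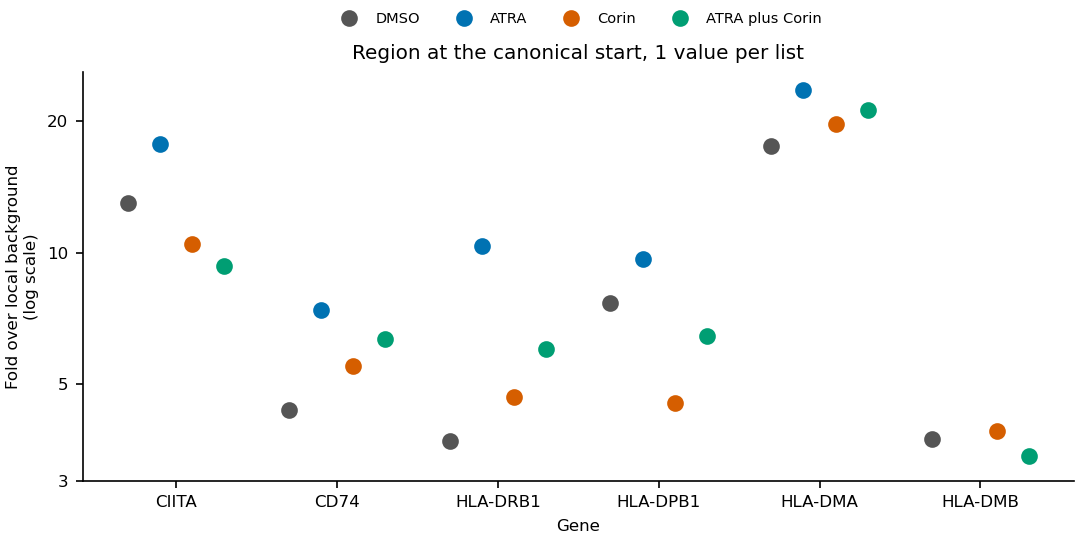
Fold over local background (vertical axis, log scale) of the region at the canonical start of the 6 members that had one (horizontal axis), 1 point per peak list; HLA-DMB has no point for ATRA because it was not called. ATRA is the highest point at the other 5 starts before centring, and the widest gap is at HLA-DRB1, from 3.70 in DMSO to 10.4 in ATRA.

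Counted over the group, ATRA came with the most additional calls. ATRA against DMSO gained 20 of 73 regions called in either list (27.4%, 95% Wilson interval 18.5 to 38.6%), against 18.5% of all regions, and lost 8 (11.0%, 5.66 to 20.2%), against 20.7%. Of 45 regions called in both lists 10 were higher (22.2%, 12.5 to 36.3%), against 16.6% of all, and 1 was lower (2.22%, 0.393 to 11.6%), against 8.8%. The median centred log2 ratio was 0.09. Without centring 16 were higher (35.6%) and 0 lower. The median over all regions was then 0.34, and no uncentred share over all regions was taken to set beside these. Within gene bodies alone the gained share was 3 of 27 (11.1%). The other gained regions lay in the flanks, as did most of the 73 regions called in either list. The share over all regions within gene bodies was not taken.

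Corin against DMSO gained 6 of 59 (10.2%, 4.74 to 20.5%), against 13.4% of all regions, and lost 9 (15.3%, 8.24 to 26.5%), against 24.6%. Of 44 regions in both, 5 were higher (11.4%, 4.95 to 24.0%), against 6.34% of all, and 4 lower (9.09%, 3.59 to 21.2%), against 10.8%; the median was 0.07. The higher regions were those 14.5 and 6.9 kb upstream of CIITA, 21.1 kb downstream of HLA-DRB1, 4.5 kb upstream of HLA-DMB and 18.3 kb upstream of HLA-DPB1. The lower ones were those 24.8 kb upstream and 56.1 kb downstream of CIITA, 3.6 kb downstream of HLA-DMB and at the HLA-DPB1 start.

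The combination against DMSO gained 8 of 61 (13.1%, 6.80 to 23.8%), against 12% of all regions, and lost 9 (14.8%, 7.96 to 25.7%), against 27.9%. Of 44 in both lists 6 were higher (13.6%, 6.40 to 26.7%), against 8.26%, and 3 lower (6.82%, 2.35 to 18.2%), against 12.1%; the median was 0.14. Set against ATRA, the combination gained 3 of 68 (4.41%, 1.51 to 12.2%), against 11.5%, and lost 16 (23.5%, 15.0 to 34.9%), against 25.4%. Of 49 in both, 7 were higher (14.3%, 7.10 to 26.7%), against 7.18%, and 7 lower (14.3%), against 18.1%. That even split depends on the centring: without it 2 of 49 (4.08%) were higher and 20 (40.8%) lower. The median over all regions was then -0.34, and no uncentred share over all regions was taken. Set against Corin, it gained 8 of 58 (13.8%, 7.16 to 24.9%), against 16.1%, and lost 6 (10.3%, 4.83 to 20.8%), against 21.1%; of 44 in both, 4 were higher (9.09%, 3.59 to 21.2%), against 9.71%, and 3 lower (6.82%, 2.35 to 18.2%), against 8.97%. Over the 5 comparisons, the interval of 16 of the 20 shares held the value over all regions. Of the other 4, 3 were shares of lost regions, with ATRA against DMSO and with the combination against DMSO and against Corin, each below the value over all regions; the share gained with ATRA against DMSO was above it by a narrow margin. These comparisons share lists, so they are not independent of each other.

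**Figure D4:**
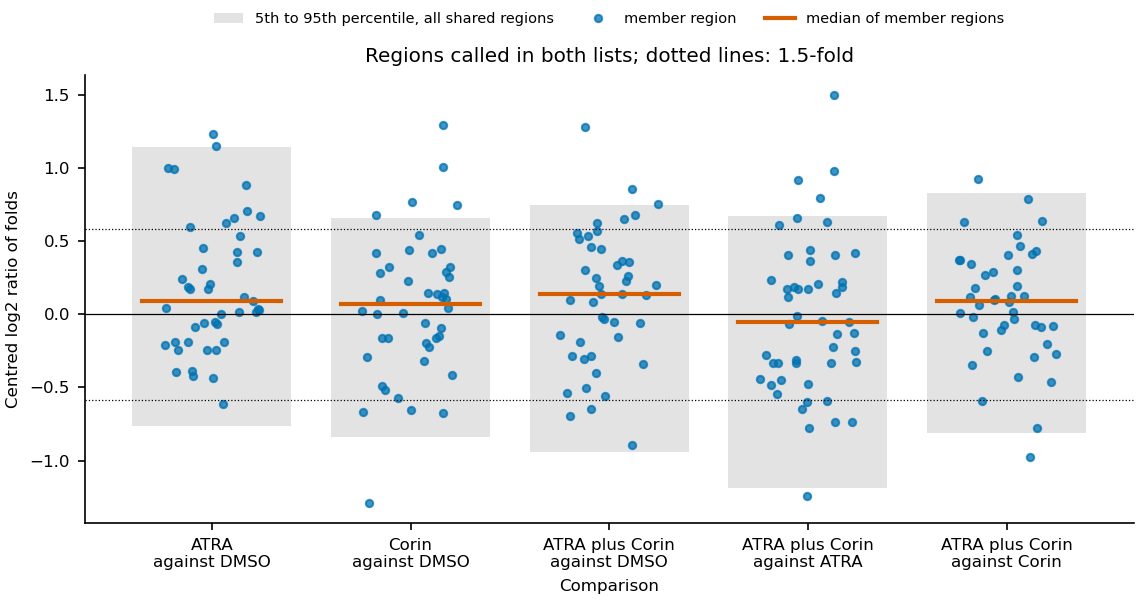
Centred log2 ratio of folds (vertical axis) of the member regions called in both lists of each of 5 comparisons (horizontal axis); each point is a region, the orange line their median, the grey band the 5th to 95th percentile of all regions called in both lists, and the dotted lines 1.5-fold. The medians of the members lie between -0.05 and 0.14, and most points lie inside the grey bands.

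The effect of a compound could be read in 2 settings, without and with the other compound. Corin was past 1.5-fold in the same direction in both settings at 4 of the 40 regions called in all lists, against 8.07% of all such regions: higher 14.5 kb upstream of CIITA, 21.1 kb downstream of HLA-DRB1 and 4.5 kb upstream of HLA-DMB, and lower 56.1 kb downstream of CIITA. With the mean of the peaks the region 21.1 kb downstream of HLA-DRB1 was past it without ATRA only (-0.0034 for the combination against ATRA). ATRA was so at 2 of 40, against 9.44% of all: higher 2.3 kb upstream of HLA-DRA, a call that was lost with the mean of the peaks, and 38.7 kb downstream of HLA-DPB1. Opposite directions past 1.5-fold were seen at 0 of 40 for either compound, and were as rare over all such regions (0.193% for Corin and 0.207% for ATRA).

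Outside the members, the starts of genes that build and feed the pathway were set beside them. The 7 genes of the class II promoter factors (RFX5, RFXAP and RFXANK of the RFX complex, NFYA, NFYB and NFYC of NF-Y, and CREB1) had a start region in every list, and 0 of 7 were higher or lower with any treatment; RFX5, for instance, had 19.4, 20.5, 18.2 and 19.8 in DMSO, ATRA, Corin and the combination. Of the 7 genes of interferon gamma signalling, which induces CIITA, 6 had a start region in every list and 0 were past 1.5-fold, while IRF8 had none. Of the 4 antigen processing genes CTSS and IFI30 had one and CTSL and LGMN did not. Of 5 other class II genes, HLA-DOB, HLA-DQA2 and HLA-DQB2 had no start region, HLA-DOA had 1 in Corin (2.13) and HLA-DRB5 had 1 in ATRA. Of 3 co-stimulation genes, CD80 had a start region in every list and CD40 in DMSO alone (3.70). Of these 26 genes, 17 had a start value in both lists of each comparison with DMSO and the other 9 could not be compared. Of the 17, 1 was past 1.5-fold with any treatment: CD86, a ligand for CD28 on T cells, with 8.12 in DMSO, 19.9 in ATRA, 15.5 in Corin and 16.3 in the combination (0.96, 1.02 and 0.98, centred log2). At all coding starts called in both lists, 2.21% were higher and 3.38% lower with ATRA, 1.22% and 0.958% with Corin, and 2.11% and 1.13% with the combination.

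MHC class I genes, the nearest relatives of the group, had 107 regions in windows set in the same way. Gained regions with ATRA were 17 of 93 (18.3%, 11.7 to 27.3%), and of 64 in both lists 7 were higher (10.9%, 5.40 to 20.9%) and 3 lower (4.69%, 1.61 to 12.9%). With Corin 0 of 59 class I regions were higher (an interval up to 6.11%), where class II had 5 of 44. The intervals of the class I and class II shares overlap in each of these, and the difference was not tested because each group has 1 list. All 12 class I genes had a start region in every list, against 5 of the 10 members; of all coding starts, 62.4% had one in DMSO, 60.4% in ATRA, 61.1% in Corin and 60.7% in the combination. Of the class I starts HLA-F, with 2.75 in DMSO and 8.99 in ATRA, was the only one past 1.5-fold with ATRA.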

How the data were processed

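The data are ATAC-seq of U-937 cells, 8 samples with 2 per group by the treatment in the labels. The authors deposited 1 narrowPeak list per group; per the file names these are filtered lists from a naive overlap, so replicates had been combined. The submitters' processing notes name cutadapt, Bowtie2, SAMtools, Picard, MACS2 and the build hg38, without versions or settings. In the deposited lists, a fold is the ratio of peak height to local background, and the deposited p and q columns are −log10 values; the summit is an offset in bp. All peak ends lay inside the hg38 chromosomes (0 beyond, 24 chromosomes). 0 columns of per-sample values were left out.

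The members and gene lists were chosen with earlier results of these data known. Overlapping peaks of the 4 lists (222491 in DMSO, 222110 in ATRA, 189896 in Corin and 197548 in the combination) were merged into union regions (chromosomes 1 to 22 and both sex chromosomes). A region was gained or lost when called in 1 list of a comparison only, over the regions called in either. Start regions overlap 500 bp either side of the start. Pileup and background were solved by taking p as a Poisson probability and adding 1 to both in the fold; the pileup was whole, within 0.05, for 99.96% to 99.98% of peaks. The lowest −log10 p was 2.79 in DMSO and 2.00 in the other lists. Regions named by rule were the starts, the 3 strongest in DMSO and, for each treatment, the 3 highest and 3 lowest with a −log10 p of at least 10 and the 3 gained and 3 lost with the highest −log10 p; others were chosen after their values were seen. The computation was tested on simulated lists and run in Python 3.11.15 with numpy 2.4.6, pandas 2.3.3, scipy 1.17.1, statsmodels 0.14.6 and matplotlib 3.10.9.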

Additional observations from a re-analysis of the deposited data

How the results depend on the processing

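The 25 results (20 shares and 5 medians) were recomputed under 13 alternatives, 2 of them chosen after seeing the data, which gave 245 values: 214 stayed within the 95% interval of the reported value, and 31 did not. The interval of each of the 5 reported medians held 0, so none has a called direction. With gene bodies alone, the share gained was 11.1% for ATRA against DMSO and 4.35% for the combination against Corin, the share lost was 4.35% for the latter, the share lower was 0.0% for ATRA against DMSO, and the share higher was 5.0% for the combination against ATRA and 0.0% against Corin; a window of 10 kb gave 3.03% higher for the combination against Corin. Lists of equal length gave 7.14% lost for the combination against DMSO and 14.8% against ATRA, and 0.0% lower for ATRA against DMSO, as did merging peaks within 150 bp and centring on the strongest 20% of regions. Without centring, the share lower was 0.0% for ATRA against DMSO and 40.8% for the combination against ATRA, and the share higher of the latter was 4.08%. The medians were then 0.43 for ATRA against DMSO and -0.39 for the combination against ATRA, beside 0.34 and -0.34 over all regions. Centring on the strongest 20% gave 6.12% higher for the combination against ATRA. Solved pileups in place of folds gave 27.3% higher and a median of 0.35 for the combination against DMSO. Centring within 20 classes of strength gave 2.27% lower for the combination against DMSO. A limit of 2-fold gave, for higher and lower, 6.67% and 0.0% for ATRA against DMSO, 4.55% and 2.27% for Corin against DMSO, 2.27% and 0.0% for the combination against DMSO, 2.04% and 2.04% against ATRA, and 0.0% and 0.0% against Corin; a higher limit passes fewer regions by construction, and for the other alternatives the cause was not tested. No paired analysis was possible because the lists combine the replicates, and no replicate could be left out. The read depth is unknown, and how much of a fold's difference depth sets could not be separated.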
